A study of Stylophora pistillata with 18 samples.

Results

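The transcript response of the reef-building coral Stylophora pistillata to 2'3'-cGAMP was read from 12 of the 18 RNA sequencing libraries of the series. These were the 6 libraries of specimens incubated for 18 h with 250 µM 2'3'-cGAMP in seawater and the 6 of specimens kept as long in seawater alone. The other 6 libraries came from specimens given 250 µM 3'3'-cUA for the same time. They entered the estimate of the spread, the other fits over all 18 libraries and a search for sets of libraries. Otherwise they appear below only as values beside named models and as shares of models called. All specimens were adult and labelled as wild type, and they came from 2 colonies, each of which gave 3 libraries per treatment. A library's name gives its treatment, then its colony and a letter for the specimen (cGAMP 2C). The labels do not say how far specimens of the same colony were separate, so every p-value here measures only how these libraries vary, which may be technical, and 2 colonies are few for the species. Whole adult tissue was sequenced. A lower level can therefore mean fewer cells of a type or less RNA per cell, which cannot be told apart. The tissue label could not be checked against marker genes, because the gene models carry no product names.

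In vertebrates the enzyme cGAS binds DNA in the cytosol and makes 2'3'-cGAMP, a cyclic dinucleotide that activates the receptor STING and through it interferon and NF-κB target genes. Relatives of cGAS, the cGAS-like receptors, and STING itself are also present in cnidarians, the phylum of corals and sea anemones, which have no interferons. In the sea anemone Nematostella vectensis the same dinucleotide induces antiviral genes. The comparison asked which coral transcripts change when the messenger is given from outside.

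Total counts per library ran from 22175801 to 28033513 with cGAMP and from 27090845 to 41800393 in the controls. Of the 29419 gene models, 21375 passed the filter on low counts and were tested, and the models left out held at most 0.0542% of the counts of a library. The cGAMP libraries lay between -86.7 and -40.7 on the first principal axis of log2 CPM (counts scaled for library size and composition), which held 36.6% of the variance, and the control libraries between 53.1 and 90.1. The second axis held 27.6% and divided each treatment. Control 1A lay at -105.6 on it, beyond control 2A, 2B and 2C at -28.5 to -23.0. Its scaling factor for composition was 0.714, where the other controls had 1.04 to 1.23.

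Before the treatment results, the libraries themselves fell into 2 sets that do not follow the colony numbers. A search over all 18 libraries, made without reference to treatment or colony, found 59 models whose log2 CPM lay in 2 ranges with an empty gap of at least 3 units (8-fold) between them and at least 3 libraries on either side. All 59 divided the libraries in the same way, 9 and 9. The first set held cGAMP 1A, 1B, 1C and 2C, cUA 1C, 2A and 2B, and control 1B and 1C. The second held cGAMP 2A and 2B, cUA 1A, 1B and 2C, and control 1A, 2A, 2B and 2C. Spis_XP_022808545_1, a single coding segment on scaffold NW_019217800.1 (1196787 to 1197722), showed the widest gap, with 0.0779 to 1.29 CPM in the libraries of the first set and 52.6 to 87.0 CPM in those of the second. LOC111345559 (Spis_XP_022808584_1, NW_019218671.1, 22869 to 24490) stood at 1.90 to 14.9 CPM in the first set and 503.7 to 890.5 CPM in the second. In the other direction LOC111339221 (Spis_XP_022801554_1, NW_019218182.1, 240343 to 255632) had 9.35 to 17.2 CPM in the first set and 0 to 0.458 CPM in the second. The 59 models lay on 54 scaffolds, 20 of them high in the first set and 39 in the second. For cGAMP 0 of them were called, where 21.5% of all tested models were. The log2 fold change was above 0 in all models high in the first set and below 0 in all high in the second. Its median over the 59 was -1.15. The first set held more cGAMP than control libraries and the second fewer. The signs cannot be told apart from this make-up of the sets. Each treatment has libraries on both sides of the gap, which widens the spread. The 0 calls therefore do not show that these models were unaffected by cGAMP. With a smaller gap of 2 units (4-fold), 142 of 187 models gave this same division.

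**Figure D1:**
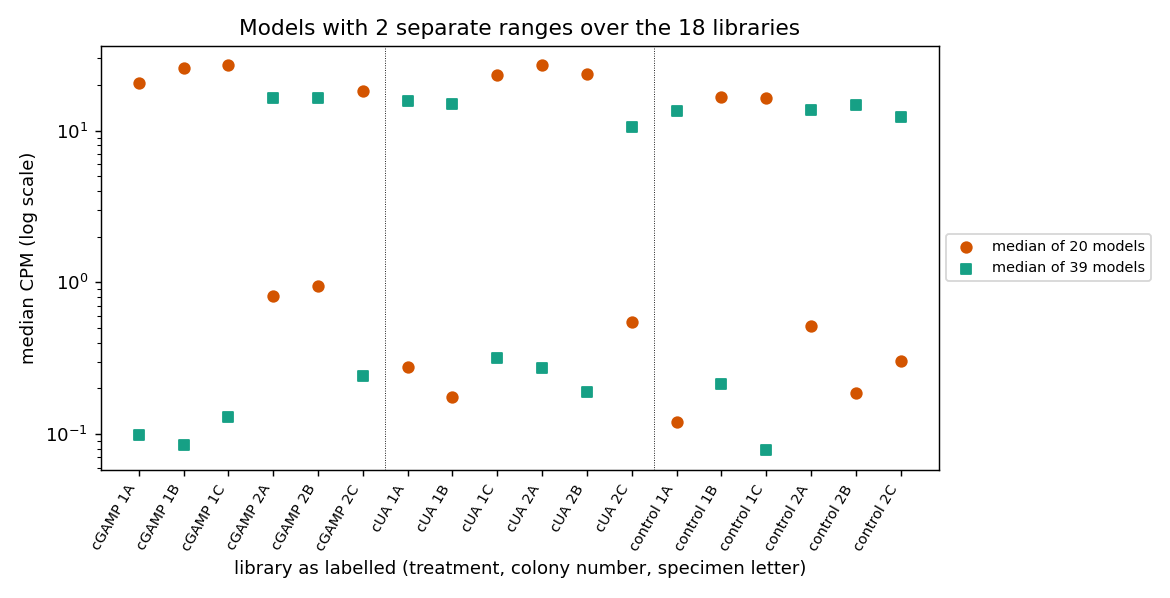
Median CPM (log scale) of the 20 models high in the first set (circles) and of the 39 models high in the second set (squares) in each of the 18 libraries, labelled by treatment, colony number and specimen letter. Circles lie between 16.5 and 27.1 in the libraries of the first set and at or below 0.939 in the others, and the library labelled cGAMP 2C stands with cGAMP 1A to 1C, the library labelled control 1A with control 2A to 2C.

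If the first set is read as colony 1 and the second as colony 2, 12 of the 18 libraries carry the matching colony number and 6 do not. Among the libraries compared here the library labelled cGAMP 2C stood with those labelled colony 1, and the library labelled control 1A with those labelled colony 2. The treatments were not spread evenly over the sets either, with 4 cGAMP and 2 control libraries in the first and 2 cGAMP and 4 control libraries in the second. What the sets are was not tested. The labels are kept throughout. The counts of calls, the comparison of calls between colonies and the median of the highest level class are given with and without these 2 libraries. This step was added after the data were seen. Fits without control 1A and cGAMP 2C also leave out the 6 cUA libraries. Their differences from the fits as labelled may therefore not rest on these 2 libraries alone.

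Incubation with cGAMP was followed by change in 4604 of the 21375 models, 21.5% of those tested. By edgeR's quasi-likelihood test with Benjamini-Hochberg adjustment 1970 models rose (9.22%) and 2634 fell (12.3%), with 7238 models at an unadjusted p below 0.05. Large changes were common. Rises of over 4-fold were found for 540 called models and falls of over 4-fold for 752, and rises of over 8-fold for 220 and falls for 233. Against a test of change above 2-fold, which asks for more than a difference from 0, 519 models rose (2.43%) and 539 fell (2.52%). In 1189 models (5.56%) the lowest cGAMP library lay above the highest control library, and in 1044 models (4.88%) the highest cGAMP library lay below the lowest control library. Of the called models 1129 that rose and 988 that fell showed such separation.

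Without the libraries labelled control 1A and cGAMP 2C, the remaining 10 cGAMP and control libraries gave 3611 rises (16.9%) and 4617 falls (21.6%). These held 1886 of the 1970 rises (95.7%) and 2537 of the 2634 falls (96.3%) of the full comparison. The median standard error of a log2 fold change was 0.331 over all 18 libraries and 0.247 in these 10, which leave out the cUA libraries as well. With the sets in place of the colony numbers as the covariate, all 18 libraries gave 2200 rises (10.3%) and 3087 falls (14.4%). The balance of direction depended on the scaling, with 42.8% of the calls rising as given, 33.4% (1639 rises and 3265 falls) after upper quartile scaling and 32.1% (1366 and 2889) with total counts alone, where the log2 fold change had a median of -0.24 over all models, against -0.07 as given.

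The transcripts that changed also took a different share of the library. Models called as risen held 14.4 to 19.6% of the counts in the cGAMP libraries (median 16.3%) and 5.75 to 8.75% in the control libraries (median 6.33%). Models called as fallen held 4.38 to 5.40% with cGAMP (median 5.04%) and 9.67 to 15.3% in the controls (median 13.4%). Since the models were chosen by this contrast, these shares are a description.

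The largest rises without overlap between the groups were in 4 models with control medians of at most 19.3 CPM. Spis_XP_022783981_1, a model of 8 coding segments on the minus strand of NW_019217845.1 (897870 to 902803), had 490.8 CPM in the lowest, 787 in the median and 2386 in the highest cGAMP library, against 7.53, 19.3 and 48.1 CPM in the controls. Every cGAMP library lay above every control library, and the log2 fold change was 5.76 ± 0.60 (SE, edgeR adjusted p = 3.36e-06). Its median with cGAMP was the highest of the 4. LOC111325825 (Spis_XP_022785476_1, 2 coding segments, minus strand of NW_019217860.1, 595725 to 596474) had a lowest, median and highest value of 65.7, 254.7 and 885.5 CPM with cGAMP, against 3.30, 5.24 and 15.6 CPM in the controls, a log2 fold change of 5.69 ± 0.74 (edgeR adjusted p = 3.36e-05). Its cGAMP values were higher in colony 1, at 299 to 885.5 CPM, than in colony 2, at 65.7 to 210.4 CPM, while the controls stood at 4.43 to 5.51 and at 3.30 to 15.6 CPM. Spis_XP_022792730_1 (2 coding segments, plus strand of NW_019217962.1, 28221 to 32422) had 10.5, 22.9 and 63.9 CPM with cGAMP, against 0.133, 0.480 and 1.65 CPM in the controls, a log2 fold change of 5.72 ± 0.62 (edgeR adjusted p = 5.5e-06). LOC111342923 (Spis_XP_022805782_1), with 2 coding segments between 18160 and 19301 of NW_019218379.1, was close to silent in seawater, with 0 to 0.0532 CPM, and had 0.412 to 7.21 CPM with cGAMP. These rises were called under each of the 27 alternatives tried for the first 3 models, with log2 fold changes from 5.36 to 6.37 for Spis_XP_022783981_1, from 3.90 to 6.70 for LOC111325825 and from 4.95 to 6.59 for Spis_XP_022792730_1, and that of LOC111342923 under 26 of 27, with colony 2 alone as the exception.

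Among the deepest falls were models whose reads all but disappeared. LOC111335484 (Spis_XP_022797123_1, 4 coding segments, plus strand of NW_019218057.1, 78662 to 82459) had 0 to 0.0916 CPM with cGAMP, against 0.887 to 3.53 CPM in the controls, which came to 8 counts in the 6 cGAMP libraries together against 541 in the 6 control libraries. The groups did not overlap, and the log2 fold change was -5.38 ± 0.55 (SE, edgeR adjusted p = 2.7e-06). LOC111330992 (Spis_XP_022791745_1, NW_019217946.1, 352520 to 355023) had 6 counts with cGAMP against 622 in the controls. Spis_XP_022805844_1 (6 coding segments, minus strand of NW_019218384.1, 63401 to 74132) had 2 counts against 741, a ratio of 0.00401 after scaling by depth (exact 95% interval 0.000484 to 0.0145, counting error only). Its controls ranged widely, however, from 0.0798 CPM in control 1A to 11.6 CPM in control 1B, and its call was lost in colony 2 alone. LOC111339328 (Spis_XP_022801703_1, NW_019218186.1, 81435 to 82449) had 0.275 to 2.20 CPM with cGAMP and 4.28 to 57.9 CPM in the controls.

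**Figure D2:**
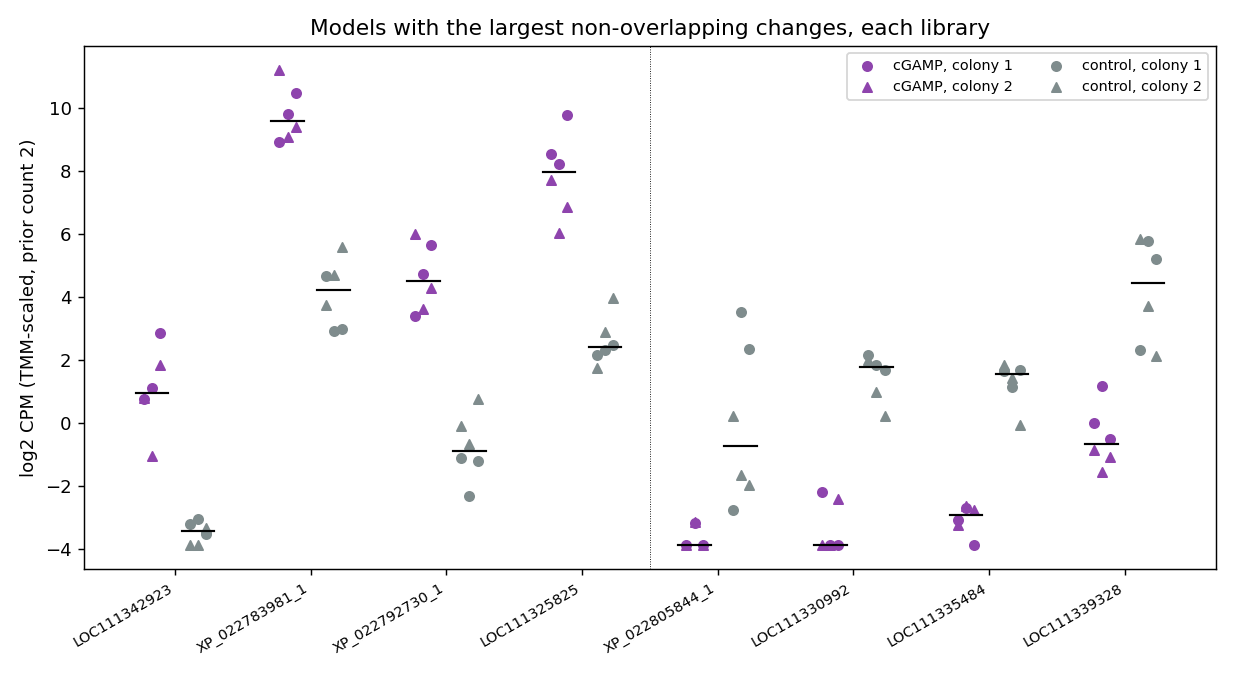
Log2 CPM (composition-scaled, prior count 2) in each cGAMP library (purple, left of each pair) and each control library (grey, right) for the 4 models with the largest rises and the 4 with the largest falls among called models without overlap of the groups. Circles are colony 1, triangles colony 2 and bars the median of 6 libraries; the prefix Spis_ is left off the names.

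With cUA, whose comparison shares the same control libraries, the 4 rising models had mean levels of 573.7 ± 454.5 CPM (SD, n = 6) for Spis_XP_022783981_1, 151.1 ± 114.3 for LOC111325825, 10.6 ± 7.52 for Spis_XP_022792730_1 and 2.46 ± 4.65 for LOC111342923, beside cGAMP means of 1070, 325.4, 30.5 and 2.76 CPM. Their log2 fold changes over the controls were 4.74, 4.42, 4.08 and 6.14 with cUA, beside 5.76, 5.69, 5.72 and 6.72 with cGAMP. Of the 4 falling models, LOC111330992 had 0.0455 ± 0.0469 CPM with cUA and a mean of 0.0449 CPM with cGAMP, and LOC111335484 had 0.320 ± 0.181 and 0.0573 CPM. Spis_XP_022805844_1 had 0.242 ± 0.285 CPM with cUA and 0.0147 CPM with cGAMP, and LOC111339328 had 5.26 ± 3.48 and 0.825 CPM. Their log2 fold changes with cUA were -5.89, -2.98, -3.21 and -2.58 in this order, beside -5.95, -5.38, -6.98 and -5.30 with cGAMP (edgeR adjusted p with cUA from 2.83e-05 to 0.0289 over the 8 models). Differences between the compounds were not tested here. Of all tested models 5.91% rose and 4.29% fell with cUA, 10.2% together.

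Change also reached the most abundant transcripts. LOC111335815 (Spis_XP_022797545_1, 10 coding segments, plus strand of NW_019218067.1, 89494 to 95862) had a lowest, median and highest value of 1700, 2269 and 2858 CPM with cGAMP, against 2912, 5168 and 5821 CPM in the controls. The groups did not overlap, and the log2 fold change was -1.11 ± 0.23 (edgeR adjusted p = 0.00226). LOC111332950 (Spis_XP_022794176_1, 5 coding segments, minus strand of NW_019217990.1, 150338 to 153360) had 2034, 2626 and 2834 CPM with cGAMP and 769.4, 1265 and 1710 CPM in the controls, again without overlap, a log2 fold change of 1.03 ± 0.24 (edgeR adjusted p = 0.00421). Spis_XP_022803226_1 (12 coding segments, NW_019218244.1, 116311 to 124894) had 1255 to 4902 CPM with cGAMP and 861.7 to 1775 CPM in the controls, with overlap, and rose by 1.34 on the log2 scale. Spis_XP_022779720_1 (29 coding segments over 25.4 kb, minus strand of NW_019217809.1, 221025 to 246459) had 241.2 to 2317 CPM with cGAMP, against 1030 to 9154 CPM in the controls, and Spis_XP_022806141_1 (3 coding segments, NW_019218406.1, 32608 to 34299) had 834.1 to 1768 CPM against 1457 to 5426 CPM. In both the groups overlapped only through control 2C, the lowest control library, and the log2 fold changes were -2.10 ± 0.49 and -1.59 ± 0.33 (edgeR adjusted p = 0.0053 and adjusted p = 0.00203).

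The calls of the other abundant models were less secure. LOC111336571 (Spis_XP_022798424_1, 7 coding segments, NW_019218091.1, 228231 to 234773) was the most abundant called model, at 6994, 8357 and 12800 CPM in the lowest, median and highest cGAMP library, against 10860, 17500 and 42090 CPM in the controls, the last of them in control 1A. The log2 fold change of -1.14 ± 0.37 (edgeR adjusted p = 0.0362) lost its call in 12 of 27 alternatives and was -0.72 without control 1A and cGAMP 2C (adjusted p = 0.0282). Spis_XP_022800942_1 (1 coding segment, NW_019218162.1, 106866 to 107639) had 3813, 4986 and 8012 CPM with cGAMP and 267.8, 768.2 and 3753 CPM in the controls. Its groups did not overlap, but control 1A, at 3753 CPM, lay just under the lowest cGAMP library. The call (log2 fold change 1.90 ± 0.66, edgeR adjusted p = 0.0463) was lost in 15 of 27 alternatives, while without control 1A and cGAMP 2C the log2 fold change was 3.05 ± 0.52 (adjusted p = 0.000773). LOC111345883 (Spis_XP_022808911_1, NW_019218727.1, 13917 to 17505) had 2111 to 3694 CPM with cGAMP and 970.2 to 2510 CPM in the controls and lost its call in 9 of 27 alternatives.

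A stable level could be shown for few models. The 95% interval of the log2 fold change lay within 0.5 of 0 on either side for 1240 models (5.80%), while the typical interval reached 0.696 to either side. The most abundant of these were Spis_XP_022798813_1 (NW_019217794.1, 1216966 to 1226725), with 855.1, 914.2 and 1320 CPM in the lowest, median and highest cGAMP library and 784.2, 998.7 and 1288 CPM in the controls, and LOC111336934 (Spis_XP_022798848_1, NW_019218102.1, 18889 to 25168), with 462, 877.2 and 987.7 CPM with cGAMP and 775, 853.8 and 936.4 CPM in the controls. In both the groups overlapped, and the log2 fold changes were -0.05 (95% interval -0.48 to 0.38) and -0.03 (95% interval -0.48 to 0.43).

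Cglr2 (Spis_XP_022802921_1, 1 coding segment, minus strand of NW_019218231.1, 193575 to 195716) bears the symbol of a cGAS-like receptor, the family of enzymes that make such dinucleotides. It was among the low transcripts, and its levels in colony 1 were 7.53, 7.69 and 8.58 CPM with cGAMP against 1.24, 5.10 and 5.88 CPM in the controls. In colony 2 they were 3.62, 3.72 and 4.67 CPM with cGAMP against 2.43, 3.33 and 5.22 CPM in the controls. The groups did not overlap in colony 1 and overlapped in colony 2. The change over both colonies did not pass the test (log2 fold change 0.56, 95% interval -0.18 to 1.31, edgeR adjusted p = 0.280), nor did it without control 1A and cGAMP 2C (0.34, adjusted p = 0.261).

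Each colony was also fitted alone, which compares libraries that share no sample. Its cUA libraries entered the estimate of the spread. Colony 1 gave 1199 rises (5.61%) and 1520 falls (7.11%), and colony 2 gave 545 rises (2.55%) and 269 falls (1.26%). Of the 1199 models that rose in colony 1, 1159 (96.7%) were also higher with cGAMP in colony 2, where 49.9% of all tested models were higher. Of the 1520 that fell, 1432 (94.2%) were lower in colony 2, where 50.1% of all were. The median log2 fold changes of these lists were 1.63 in colony 1 and 1.35 in colony 2 for the rises, and -1.96 and -1.22 for the falls. Conversely 543 of the 545 rises (99.6%) and 269 of the 269 falls of colony 2 had the same direction in colony 1, where 43.0% of all tested models were higher and 57.0% lower. Models called in both colonies with the same sign numbered 415 rises and 184 falls. A call in each colony with opposite signs was found for 0 models.

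In the fits as labelled, some uncalled models were far lower with cGAMP in colony 1 with little difference in colony 2, and others far higher in colony 2 with little difference in colony 1. With control 1A taken out of colony 1 and cGAMP 2C out of colony 2, these models were fewer. Uncalled models beyond 4 on the log2 scale in a colony and within 1 of 0 in the other, limits chosen after the data were seen, numbered 91 that were lower in colony 1 and 34 that were higher in colony 2 as labelled, against 17 and 5 without these libraries. In the opposite directions there were 0 in each colony as labelled. Without these libraries 5 were higher in colony 1 and 7 lower in colony 2. The calls numbered 3562 rises (16.7%) and 4137 falls (19.4%) in colony 1, from 3 cGAMP and 2 control libraries, and 1345 rises (6.29%) and 1198 falls (5.6%) in colony 2, from 2 cGAMP and 3 control libraries. These fits held no cUA libraries, unlike those as labelled. Of the colony 2 rises 1320 (98.1%) were higher with cGAMP in colony 1 and 1088 were called there, and of its falls 1165 (97.2%) were lower and 968 were called; of all tested models 47.3% were higher and 52.7% lower there. Of the colony 1 rises 3189 (89.5%) were higher in colony 2, where 46.4% of all were, and of its falls 3807 (92.0%) were lower, where 53.6% of all were. Over all models the fold changes of the colonies correlated at r = 0.675 as labelled and at r = 0.724 without these libraries, a description across models that are not independent. With the libraries grouped by set, 1369 models rose and 1953 fell in the first set (6.40% and 9.14%), and 856 rose and 600 fell in the second (4% and 2.81%).

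**Figure D3:**
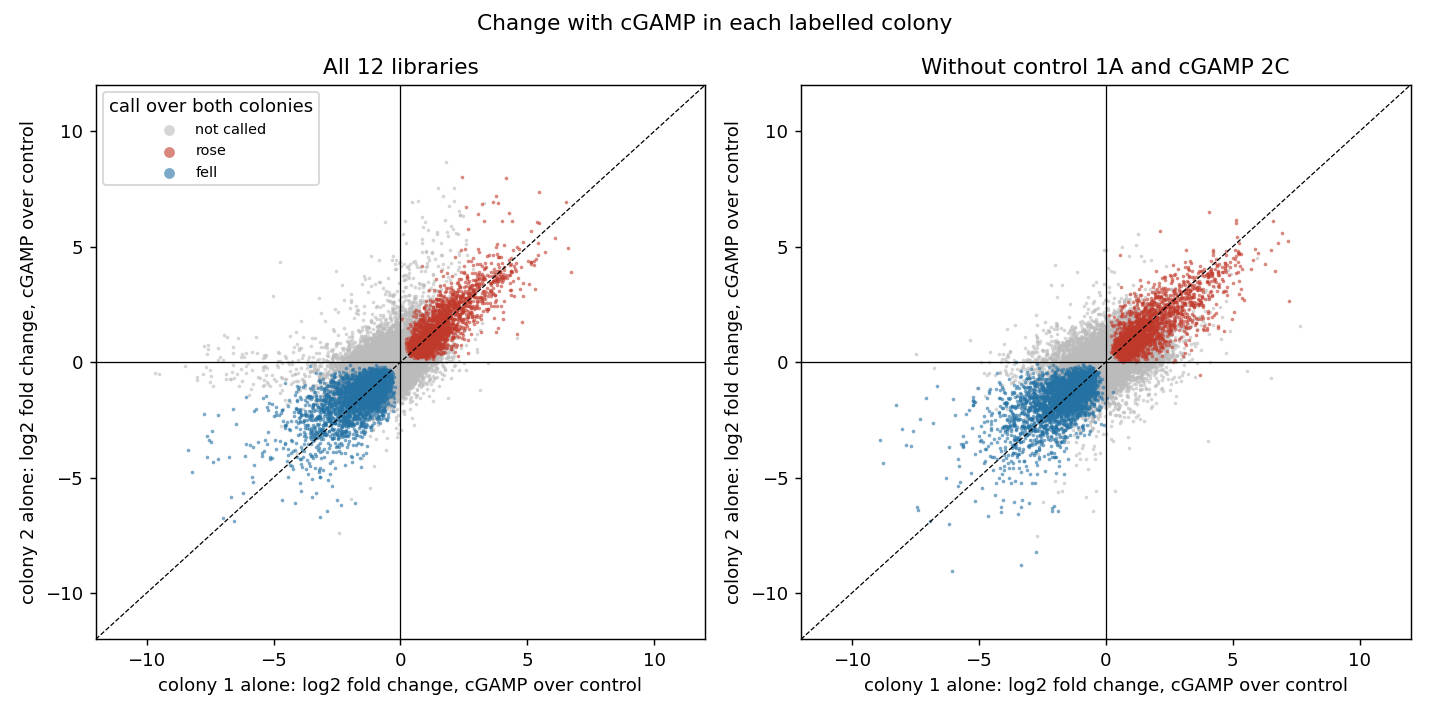
Log2 fold change of cGAMP over control in colony 1 alone (horizontal) and in colony 2 alone (vertical) for the 21375 tested models, with all 12 libraries (left panel) and without control 1A and cGAMP 2C (right panel). Colours give the call over both colonies; the 1970 models that rose and the 2634 that fell lie on the same side of 0 in both colonies in the left panel, and the grey points far out along an axis there are fewer in the right panel.

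Whether the colonies differed in their response was tested by the interaction of colony and treatment. EdgeR's quasi-likelihood test called 0 models (smallest adjusted p = 0.884), while 1119 (5.24%) had an unadjusted p below 0.05. The typical interval of this difference reached 1.35 on the log2 scale to either side, so sizeable differences could pass unseen. DESeq2 called 4 models. The smallest interaction p by edgeR belonged to LOC111325243 (Spis_XP_022784748_1, minus strand of NW_019217853.1, 148005 to 151140), also among those 4. It had 106.2 to 114.1 CPM with cGAMP against 17.4 to 32.1 CPM in the controls of colony 1, and 48.0 to 59.3 CPM with cGAMP against 34.9 to 45.2 CPM in the controls of colony 2. The groups did not overlap in either colony. The rise was smaller in colony 2 by 1.72 ± 0.34 on the log2 scale (unadjusted p = 0.000105, adjusted p = 0.884, edgeR), and with control 1A and cGAMP 2C left out the adjusted p was 0.0687. Spis_XP_022787909_1 (plus strand of NW_019217890.1, 70354 to 73834) had 4.68 to 7.19 CPM with cGAMP against 2.83 to 3.47 CPM in the controls of colony 1, and 3.82 to 8.06 CPM with cGAMP against 9.06 to 13.1 CPM in the controls of colony 2. It was higher with cGAMP in colony 1 and lower in colony 2, without overlap in either, but the difference of -1.93 ± 0.42 did not pass by edgeR (adjusted p = 0.884). The other models that DESeq2 called were LOC111324899 (Spis_XP_022784299_1) and Spis_XP_022810432_1, the second of which had 0 CPM in all 3 cGAMP libraries of colony 1.

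Without control 1A and cGAMP 2C, edgeR called the interaction in 5 models (0.0234%). An unadjusted p below 0.05 was found for 2757 models (12.9%), against 5.24% over all 18 libraries as labelled. The fit that gave 12.9% left out the cUA libraries as well. The 5 called models are named here after their values were seen. LOC111341442 (Spis_XP_022804143_1, 5 coding segments, NW_019218285.1, 82351 to 88280) had 0.300 to 0.396 CPM with cGAMP against 1.30 to 1.52 CPM in the controls of colony 1, and 1.38 to 3.16 CPM with cGAMP against 0.0971 to 0.127 CPM in the controls of colony 2. The direction of its change was thus opposite in the colonies (adjusted p = 0.0250, edgeR). The libraries left out had 0.201 CPM in cGAMP 2C, below the cGAMP libraries of both colonies but nearer those of colony 1. Control 1A had 0 CPM, nearer the controls of colony 2. LOC111325296 (Spis_XP_022784838_1, 17 coding segments, NW_019217853.1, 454574 to 466931) fell over all libraries, and the fall was deeper in colony 1, with 0.0429 to 0.127 CPM against 6.56 to 9.15 CPM in the controls, than in colony 2, with 0.458 to 0.564 CPM against 0.728 to 1.52 CPM (adjusted p = 0.0420, edgeR). Spis_XP_022801994_1 had 2.70 to 3.89 CPM with cGAMP against 10.9 to 11 CPM in colony 1 and 27.6 to 34.1 CPM with cGAMP against 14.9 to 20.4 CPM in colony 2. For this model the left-out cGAMP 2C had 2.77 CPM and control 1A had 23.6 CPM. In LOC111342093, by contrast, control 1A had 2.91 CPM, nearer the controls of colony 1 (3.68 to 4.55) than those of colony 2 (6.18 to 9.19). Spis_XP_022809197_1 and LOC111342093 (Spis_XP_022804865_1) were higher with cGAMP in colony 1 and lower in colony 2 (adjusted p = 0.0420 and adjusted p = 0.0454, edgeR). With the sets in place of the colony numbers and all 18 libraries, edgeR called 0 models (smallest adjusted p = 0.107), and 1488 (6.96%) had an unadjusted p below 0.05.

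The direction of change went with the level of the transcript. Models were divided into 5 classes of 4275 by their mean level over the 12 libraries, as log2 CPM per kb of coding length. In the lowest class 4.07% rose and 15.2% fell, and in the highest 12.7% rose and 7.32% fell, with the middle classes in between for rises (7.27, 9.85 and 12.1%) and a maximum of falls of 17.5% in the second. The median log2 fold change was -0.36 in the lowest class and 0.10 in the highest. In colony 1 alone as labelled these medians were -0.63 and 0.10, and in colony 2 alone -0.13 and 0.12. The lowest class was thus further below 0 in colony 1 as labelled. These medians per colony were not taken without control 1A and cGAMP 2C. In the lowest class the median deviation of a library from the control mean was -0.42 to -0.18 with cGAMP and -0.21 to 0.21 in the controls, with overlap through control 2B and 2C. In the highest class it was 0.09 to 0.24 with cGAMP and -0.14 to 0.18 in the controls, the last in control 1A. Control 1A thus lay inside the range of the cGAMP libraries in the highest class. The median of the highest class turned to -0.0025 with upper quartile scaling and to -0.054 with total counts, and was 0.18 without control 1A and cGAMP 2C, while that of the lowest was below 0 under each of these.

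**Figure D4:**
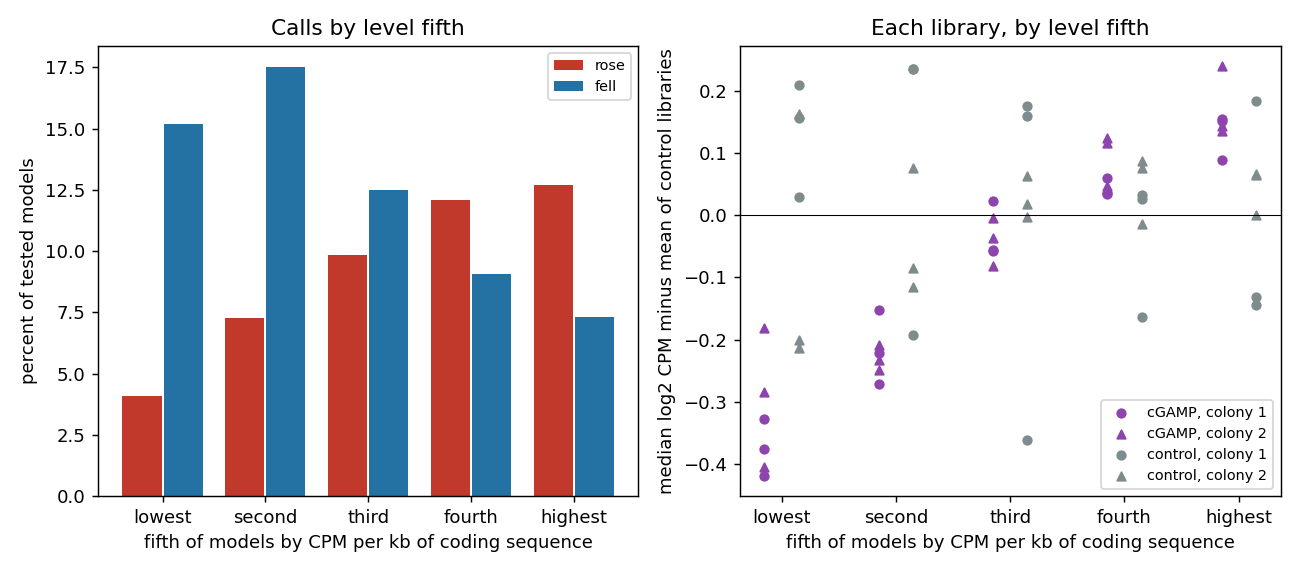
Left, percent of tested models that rose and that fell with cGAMP in each class of models by CPM per kb of coding length; right, the median deviation of each library from the mean of the control libraries (log2 CPM) in each class. Rises increase from 4.07% in the lowest class to 12.7% in the highest; cGAMP libraries (purple, left) all lie below 0 in the lowest class and above 0 in the highest.

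By exon structure the shares lay closer together than by level. Models of a single coding segment rose in 8.52% of 2924 and fell in 11.2%, those of 2 to 4 segments in 8.81% and 12.8% of 7228, those of 5 to 9 in 10.5% and 12.8% of 5621, those of 10 to 29 in 9.14% and 11.9% of 4921, and those of 30 or more in 6.61% and 12% of 681. Calls in models with many segments were smaller changes: the share of calls over 2-fold was 81.6% for single segments and 54.3% for 30 or more, where the median standard errors were 0.384 and 0.247. By coding length 8.32% rose in the shortest class and 11.1% in the longest. Of the 1328 tested models from the predictor AUGUSTUS 9.49% rose and 5.80% fell, and of the 19858 from Gnomon 9.18% rose and 12.8% fell. Within the lowest class by level 3.92% of 663 AUGUSTUS models and 17.4% of 3560 Gnomon models fell. The difference between the sources was not tested. Of 12 tested models with RefSeq as their source, all mitochondrial, 6 rose (50%) and 0 fell, with a median log2 fold change of 1.08.

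As a value per library, the share of counts in models of a single coding segment was 7.43 ± 0.33% with cGAMP and 6.87 ± 0.30% in the controls (SD, n = 6 each). In an exact two-sided permutation of treatment labels within colonies its p was 0.01, adjusted p = 0.05 over 10 such shares. The 13 mitochondrial models held 0.0219 ± 0.0084% of the counts with cGAMP and 0.0147 ± 0.0047% in the controls (exact permutation p = 0.005, the smallest that the 400 arrangements can give, adjusted p = 0.05). Neither passed the threshold of an adjusted p below 0.05, and both did without cGAMP 2C. Without control 1A and cGAMP 2C the differences were 0.66 and 0.00794 percentage points (exact permutation, adjusted p = 0.05 each). With these libraries left out fewer than 400 arrangements exist and the smallest possible p is larger, so not passing there says little. The other 8 shares, among them those of the remaining segment classes, the prediction sources and the 50 most abundant models of a library, had adjusted exact permutation p-values of at least 0.417. The libraries were enriched on oligo(dT) beads, whose part in the mitochondrial share was not tested.

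Models called with cGAMP often lay beside others called in the same direction. Among 19371 pairs of neighbouring tested models on the same scaffold 394 rose together, 571 fell together and 338 went in opposite directions. Of the rising models with a tested neighbour 35.4% (673 of 1902) had a rising one, where 16.1% of all tested models had, and of the falling models 38.02% (977 of 2570) had a falling one, where 21.9% of all had. The fold changes of neighbours correlated at r = 0.319 over 9459 tandem pairs, 0.254 over 4956 divergent pairs and 0.124 over 4956 convergent pairs. At less than 1 kb apart r was 0.426 (3014 pairs) and at 10 kb or more 0.182 (4791 pairs). These are descriptions across models, and pairs close together may share reads where models are near-identical copies or where transcripts run on, which the counting does not reveal.

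The longest rising run held 9 adjacent models within 68.2 kb of NW_019217860.1 (377407 to 445659), with 5 on the plus and 4 on the minus strand and log2 fold changes from 2.51 to 3.96. Runs were found after their values were seen, and for each the member with the largest change is named. Members are adjacent among tested models, so untested models and long stretches may lie within a run. On NW_019218245.1, for example, a run has no tested model between 36350 and 143124. LOC111325841 (Spis_XP_022785492_1, 7 coding segments, 380701 to 386205) had a lowest, median and highest value of 187.2, 273.1 and 457.6 CPM with cGAMP, against 11.4, 18.4 and 25.7 CPM in the controls (log2 fold change 3.96 ± 0.27, edgeR adjusted p = 6.08e-08). LOC111325804 (Spis_XP_022785431_1), the last of the run, was the most abundant, with 1953, 2218 and 4164 CPM with cGAMP against 134.3, 169.9 and 385.5 CPM. In all 9 the groups did not overlap, and the spans of 2 of the 9 models overlap others. Runs here and below hold called models only. Of the called models 1129 of 1970 rises and 988 of 2634 falls were without overlap, against 5.56% and 4.88% of all tested models. LOC111325825, named above, lies further along the same scaffold, of whose 65 tested models 29.2% rose.

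A run of 6 models on NW_019217936.1 (275603 to 291986) consisted only of single coding segments of 519 to 585 bases, with log2 fold changes from 2.08 to 4.59. Its leading member, LOC111330496 (Spis_XP_022791098_1, 279515 to 280096), had 41.3, 97.2 and 142.4 CPM with cGAMP and 2.69, 3.55 and 6.07 CPM in the controls, and in all 6 the groups did not overlap. Another run of 6 single segments, on NW_019217841.1 (564953 to 611915), was led by LOC111324251 (Spis_XP_022783496_1), with 154.1, 341.8 and 749.2 CPM with cGAMP and 6.96, 12.9 and 24.2 CPM in the controls. On NW_019217852.1 (316612 to 354940) 7 models, all on the plus strand and of 2 or 3 segments, rose by 2.20 to 4.29 on the log2 scale, and LOC111325162 (Spis_XP_022784639_1) led them with 14.2, 37.6 and 71.1 CPM against 1.16, 1.67 and 3.52 CPM. On NW_019217968.1 (188670 to 223978) LOC111332042 (Spis_XP_022793029_1) led 6 models with 176.6, 324.7 and 555.1 CPM with cGAMP against 9.29, 11.5 and 28.8 CPM. Whether members of a run are copies of the same gene was not tested, and reads of near-identical copies may have been split between them.

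The longest falling run held 11 adjacent models within 115.4 kb of NW_019217912.1 (424090 to 539482), 9 on the plus and 2 on the minus strand, with log2 fold changes from -4.88 to -0.83, and in 8 of them the groups did not overlap. On this scaffold 15 of 30 tested models fell and 0 rose. LOC111329133 (Spis_XP_022789477_1) had the largest change, with 0 to 0.0458 CPM with cGAMP against 0.125 to 0.772 CPM in the controls. LOC111329154 (Spis_XP_022789498_1), with a coding length of 4059 bases, had 2.15, 4.38 and 10.4 CPM with cGAMP against 12.6, 25.5 and 36.5 CPM in the controls (log2 fold change -2.35 ± 0.41, edgeR adjusted p = 0.000516). LOC111329177 (Spis_XP_022789521_1), of a single segment, had 0.591, 1.18 and 3.07 CPM against 5.27, 12.01 and 14.7 CPM. A run of 6 models on NW_019217899.1 (214994 to 301842) fell by 1.89 to 5.25 on the log2 scale without overlap of the groups in any, led by LOC111328402 (Spis_XP_022788561_1), with 0 to 0.0402 CPM with cGAMP against 0.218 to 0.759 CPM. On NW_019218074.1 (55611 to 150094) 6 models, all on the plus strand, fell, led by LOC111336054 (Spis_XP_022797817_1), with 0 to 0.229 CPM with cGAMP against 1.37 to 3.20 CPM in the controls. The members of these 3 falling runs had control medians of at most 36.3 CPM.

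The other falling runs included more abundant transcripts, and over all 10 falling runs 7 of 64 members had a control median above 100 CPM. A run of 7 models on NW_019217806.1 (852792 to 1097560) was led by LOC111320878 (Spis_XP_022779345_1), with 1.24, 5.25 and 14.8 CPM in the lowest, median and highest cGAMP library against 24.6, 85.8 and 119.9 CPM in the controls. Its most abundant member, Spis_XP_022779255_1 (66 coding segments, 924707 to 981221), had 96.5, 112.8 and 154.4 CPM with cGAMP against 308.4, 806.7 and 2117 CPM, a log2 fold change of -3.15 ± 0.35. In both the groups did not overlap. Another run of 7, on NW_019217810.1 (789428 to 845115), was led by LOC111321320 (Spis_XP_022779906_1), with 0.0429 to 0.550 CPM with cGAMP against 1.65 to 2.61 CPM in the controls. The remaining falling runs of 5 or 6 models were led by LOC111329021 (log2 fold change -3.25, NW_019217910.1), Spis_XP_022800806_1 (-4.20, NW_019218157.1), Spis_XP_022779289_1 (-3.79, NW_019217806.1), Spis_XP_022796956_1 (-3.24, NW_019218053.1) and LOC111345129 (-3.95, NW_019218609.1), each without overlap of the groups.

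Among the remaining rising runs, 8 models on NW_019218225.1 (842 to 90576) were led by Spis_XP_022802763_1, with 26.5, 83.3 and 105.7 CPM with cGAMP against 2.15, 5.28 and 16.3 CPM in the controls. On NW_019218191.1 (61786 to 120994) Spis_XP_022801879_1 led 5 models with 38.7, 89.1 and 171.9 CPM against 1.37, 2.73 and 5.54 CPM. On NW_019218245.1 (11565 to 200279) 6 models rose by 1.12 to 2.03 on the log2 scale, led by Spis_XP_022803258_1, with 0.129 to 0.827 CPM with cGAMP against 0 to 0.136 CPM in the controls. The groups overlapped in the last of these and in neither of the others.

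**Figure D5:**
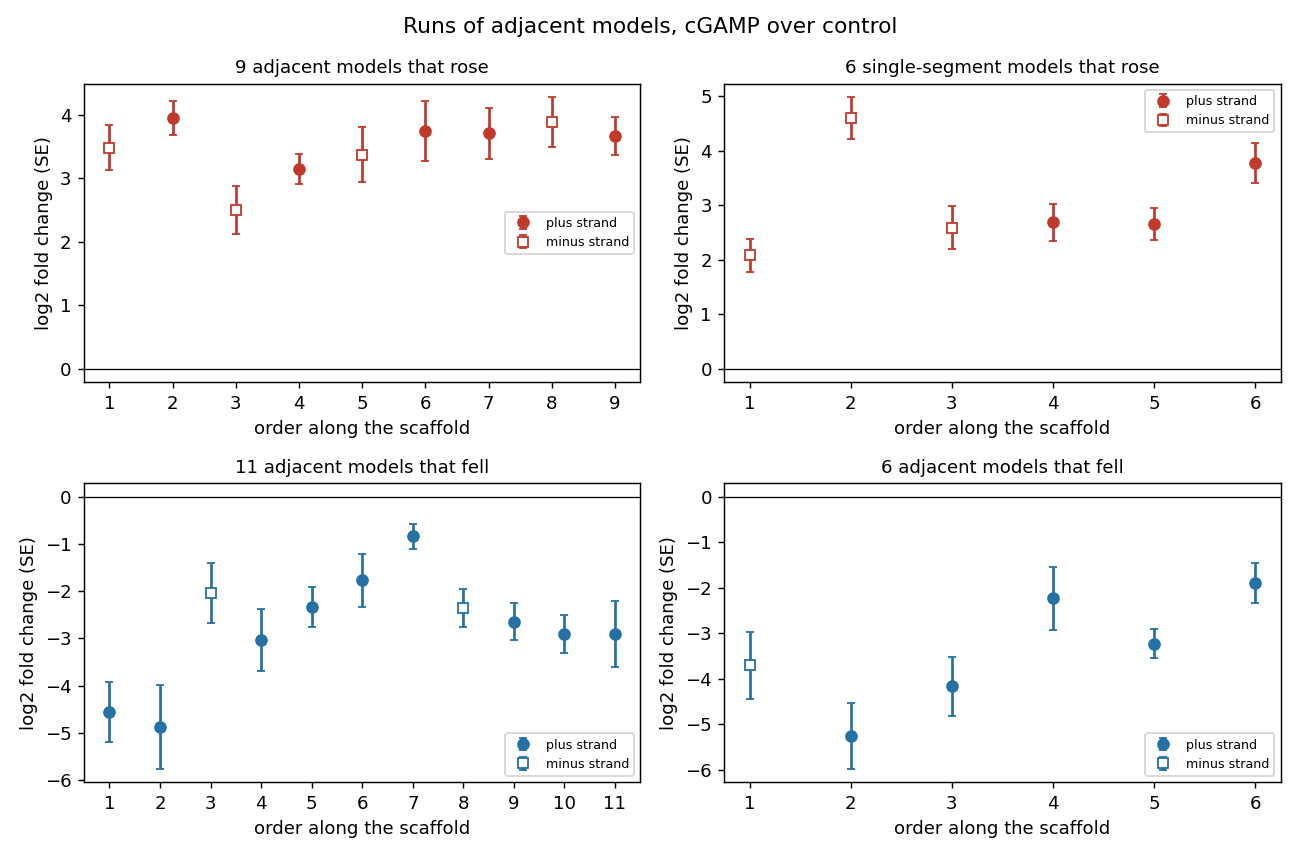
Log2 fold change of cGAMP over control with its SE, by order along the scaffold, for 2 runs of adjacent models that rose (top: 9 models and 6 single-segment models) and 2 that fell (bottom: 11 and 6 models). Filled circles are models on the plus strand and open squares models on the minus strand. Members are adjacent among tested models and share a direction because a run was defined by the same call.

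Runs of at least 5 called models, adjacent among tested models, numbered 9 for rises and 10 for falls. In the order of the genes on the assembly jaStyPist1.2, the matched symbols of the 11-model falling run, 10 in number, lay on a single chromosome with 7 adjacent pairs, and the 5 matched symbols of the 9-model rising run lay on a single chromosome with 2 adjacent pairs. Among 346 scaffolds with at least 20 tested models the share that rose had a median of 8.05% and reached 53.8% on NW_019218118.1 (14 of 26 models), and the share that fell had a median of 12.5% and reached 50% on NW_019217912.1. On NW_019218118.1 the 7 adjacent rising models between 96635 and 145526 were led by Spis_XP_022799481_1, with 7.84, 19.6 and 29.3 CPM with cGAMP against 0.777, 1.06 and 2.11 CPM in the controls. The spans of 4 of these 7 models overlap others, so their reads may be shared.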

How the data were processed

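Total RNA was column-purified with DNase treatment, enriched on oligo(dT) beads and made into directional libraries, per the labels' protocols. The deposited values are whole-number counts of reads per gene model, made by the authors and not normalized. Per the submitters' processing notes the tools were STAR, featureCounts and DESeq2. How strand and multiply matching reads were handled, the tool versions and the genome build were not given in the sources used here, so overlapping models and near-identical copies are uncertain. Positions and coding segments come from the deposited annotation of the count table.

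The counts were tested with edgeR 4.0.16 in R 4.3.3. Models passed filterByExpr with the 6 treatment-by-colony groups, factors were TMM, and robust quasi-likelihood fits used colony plus treatment over all 18 libraries (14 residual degrees of freedom). Calls needed a Benjamini-Hochberg adjusted p below 0.05. Change above 2-fold was tested with glmTreat, and the interaction in a model with 12 residual degrees of freedom. CPM are scaled by TMM, log2 CPM used a prior count of 2, and ratios of summed counts have exact intervals that cover counting error only. With totals of 22175801 to 41800393, precision depends on a model's own count. Limma 3.58.1 and DESeq2 1.42.0 served as alternatives. The fits were tested on simulated data. No pair of libraries of the same group differed by sampling noise alone (lowest chi-square per degree of freedom 21.2).

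Models named were the 4 with the largest change in each direction among called models with at least 1 CPM, the same sign in both colonies and no overlap of the groups; the 4 most abundant called models in each direction; the 2 most abundant with an interval within 0.5 of 0; the 2 with the smallest interaction p; Cglr2; and the leading member of each run of at least 5 adjacent models. Others were chosen after their values were seen, and members and lists were chosen with earlier results of these data known. Symbols were matched by protein accession for 13548 models from a RefSeq gene table. Its assembly, jaStyPist1.2, differs from that of the coordinates, so it served for names and gene order alone. Gene lists by function, promoter motifs and protein families were not analysed here, for want of descriptions and sequences.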

Additional observations from a re-analysis of the deposited data

Results flagged for a closer look

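Each group of 6 libraries was searched for a highest or lowest library that stood far from the other 5, over the named models and the shares of counts. Of 62 groups 7 held such a library, and chance alone gives about 1 in 20 groups.

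Control 2C stood low in LOC111335484, with 0.887 CPM where the other controls had 2.16 to 3.53, and in LOC111335815, with 2912 CPM where the others had 4577 to 5821. Both remained above the highest cGAMP library. In Spis_XP_022779720_1 cGAMP 2B had 241.2 CPM, where the other cGAMP libraries had 993.7 to 2317. Among the models with a stable level, cGAMP 1A had 1320 CPM of Spis_XP_022798813_1, where the others had 855.1 to 992.8, and cGAMP 2C had 462 CPM of LOC111336934, where the others had 842.4 to 987.7. Control 1A had 0.75% of its counts in models of no named source, where the other controls had 0.278 to 0.338%, and 22.7% in its 50 most abundant models, where the others had 15.9 to 18.4%.

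Spis_XP_022787909_1 was above the control mean of its own colony in every cGAMP library of colony 1, and below that of its own colony in every cGAMP library of colony 2. The change in colony 2 minus that in colony 1 was -1.93 on the log2 scale, which did not pass edgeR's interaction test (adjusted p = 0.884), and it was -1.65 without control 1A and cGAMP 2C (adjusted p = 0.172).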

How the results depend on the processing

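Over the 27 alternatives, the 17 called models named for their size of change, abundance or interaction p kept their direction; leaders of runs and models named after their values were seen were not followed. The counts of 1970 rises and 2634 falls moved by over 1.5 times in these cases: without control 1A and cUA 2A 3570 models rose; in colony 1 alone 1199 rose and 1520 fell; in colony 2 alone 545 and 269; in the 10 libraries without control 1A and cGAMP 2C 3611 and 4617; and by limma-voom with sample weights 4840 and 5958. In the same 10 libraries the counts above 2-fold were 859 rises and 1086 falls, and 5 models were called for the interaction, against 0 with all libraries and 4 by DESeq2. Leaving out each library in turn gave 1553 to 2942 rises, 1985 to 3277 falls, 426 to 660 rises and 354 to 704 falls above 2-fold (354 without control 2A) and 0 interaction calls. The shares of counts without each library in turn differed by 0.470 to 0.646 percentage points for single segments and by 0.00431 to 0.00854 for mitochondrial models, and both passed only without cGAMP 2C (0.646 and 0.00854, exact permutation, adjusted p = 0.025). Spis_XP_022787909_1, not called over all libraries at -0.08, was called as higher in colony 1 alone (1.00, adjusted p = 0.0466). The median of the highest class by level turned to -0.00246 with upper quartile scaling and -0.0535 with total counts. With specimens as a replicate block 1814 rose and 2216 fell; same-specimen libraries of the treatments deviated with correlations of -0.127 to 0.124, 3 of 6 correlated best with their own number, and the numbers were not taken as pairs. Depth limits models that are nearly silent, whose ratios rest on a few counts. The lowest class by level had a median of -0.63 in colony 1 and of -0.13 in colony 2, each fitted by itself with the libraries as labelled. The causes were not tested.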
